A study of Rattus norvegicus with 20 samples.

Results

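The immediate early genes are transcribed in neurons within minutes of strong synaptic activity, without new protein synthesis, from promoters that are held ready for the factors CREB, SRF and MEF2. Most of their products are transcription factors that go on to bind the promoters of slower effector genes, and Arc, by contrast, acts at the synapse. In the dentate gyrus, whose granule cells fire sparsely, their mRNA appears in large amounts after a seizure and is gone within hours. The 10 genes described here are Fos, Fosb, Junb, Egr1, Egr2, Egr3, Arc, Nr4a1, Nr4a3 and Npas4. They were picked by symbol from the 14586 genes tested on Affymetrix rat gene expression arrays. Each was read from the probe set that carries its symbol alone, of which each gene had 1. All 10 passed the filter on low values and lay above the background, a log2 intensity of 3.69, in all 20 rats.

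The left dentate gyrus was taken from adult male Sprague-Dawley rats, 1 array per rat and 5 rats per group. The stimulated rats had received electrical stimulation of the amygdala through an implanted electrode to evoke status epilepticus (SE), which was stopped with diazepam, and were killed 7 d or 30 d later. Sham-operated rats (sham) of the same 2 times carried the electrode and were not stimulated. The electrode lay in the left amygdala, on the side of the dentate gyrus taken, and rats were killed under CO2 anaesthesia by decapitation. According to the paper, every stimulated rat it included went on to have spontaneous seizures, and it gives their number by group only. Its median number from stimulation to death was lower in the 7 d group than in the 30 d group. Its range in the 7 d group reached down to no recorded seizure. The labels give neither the seizures of a rat nor the time since its last one. They do call the samples biological replicates. The question was whether genes that report recent activity differed from sham long after SE.

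The array medians lay between 5.22 and 5.31 on the log2 scale, and each array had between 79.0% and 80.9% of its probe sets above background. All 7 granule cell markers were measured, and their mean log2 intensity lay between 6.80 and 7.04 in stimulated rats at 7 d and between 6.85 and 7.20 in sham rats. At 30 d it lay between 6.86 and 7.08 in stimulated rats and between 7.00 and 7.18 in sham rats. Of these markers 0 were higher and 1, Calb1, was lower in stimulated rats at 7 d, with a change of -0.38. Of 6 microglial markers 5 were higher at 7 d and 3 at 30 d, and their mean lay between 7.40 and 8.18 in stimulated rats at 7 d, against 6.70 to 6.81 in sham rats. Of 4 astrocyte markers 2 were higher at 7 d, Gfap (1.13) and Aqp4 (0.37), and Gfap was higher at 30 d (0.93), with means between 9.84 and 10.2 in stimulated rats at 7 d, against 9.58 to 9.88 in sham rats. Their 30 d means ran from 9.90 to 10.3 in stimulated and from 9.70 to 9.998 in sham rats. Of 2 blood markers Hbb was lower at 7 d, with a change of -0.70 (limma adjusted p = 0.0356), and their mean lay between 5.70 and 6.35 in stimulated rats, against 6.09 to 6.66 in sham rats. Wfs1, a marker of CA1 pyramidal cells, exceeded a log2 intensity of 8 in 4 rats, namely stimulated 7 d rat 5, stimulated 30 d rats 4 and 5 and sham 30 d rat 2. Wfs1 is 1 of 7 listed CA1 and CA3 markers, of which 0 were called at either time. The mean of the 7 did not rank the rats in the same way. It was 6.58 in stimulated 7 d rat 5, below sham 30 d rat 1 (6.73) and sham 7 d rat 3 (6.70). The other rats with high Wfs1 had 6.71 and 6.94 (stimulated 30 d rats 4 and 5) and 6.74 (sham 30 d rat 2). In bulk tissue, fewer cells of a type and less RNA per cell cannot be told apart. The part of these cell shares in the results was not tested.

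The immediate early genes were not raised as a group in stimulated rats, and several lay below sham. Nr4a3 was lower at both times and Arc was lower at 7 d. Arc, Nr4a3, Egr1 and Egr3 were each lower in all 5 stimulated rats than in all 5 sham rats at 7 d. Such a gap was found for 2.44% of all probe sets, and the reverse gap, with stimulated rats above, for 3.81%. Egr1 and Egr3 were not called at 7 d in the model of all rats (limma adjusted p = 0.451 and 0.210). Apart from Npas4 in stimulated 30 d rat 4, the exception to the lack of raised levels was 1 animal, stimulated 30 d rat 2. In it Npas4, Junb, Egr1, Fos and Fosb were more than 1 log2 unit above the median of the other 4 rats of its group. That animal is described before the group differences because it enters every one of them. It was singled out for its values of these same genes, so p-values of fits that leave it out are descriptive.

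**Figure D1:**
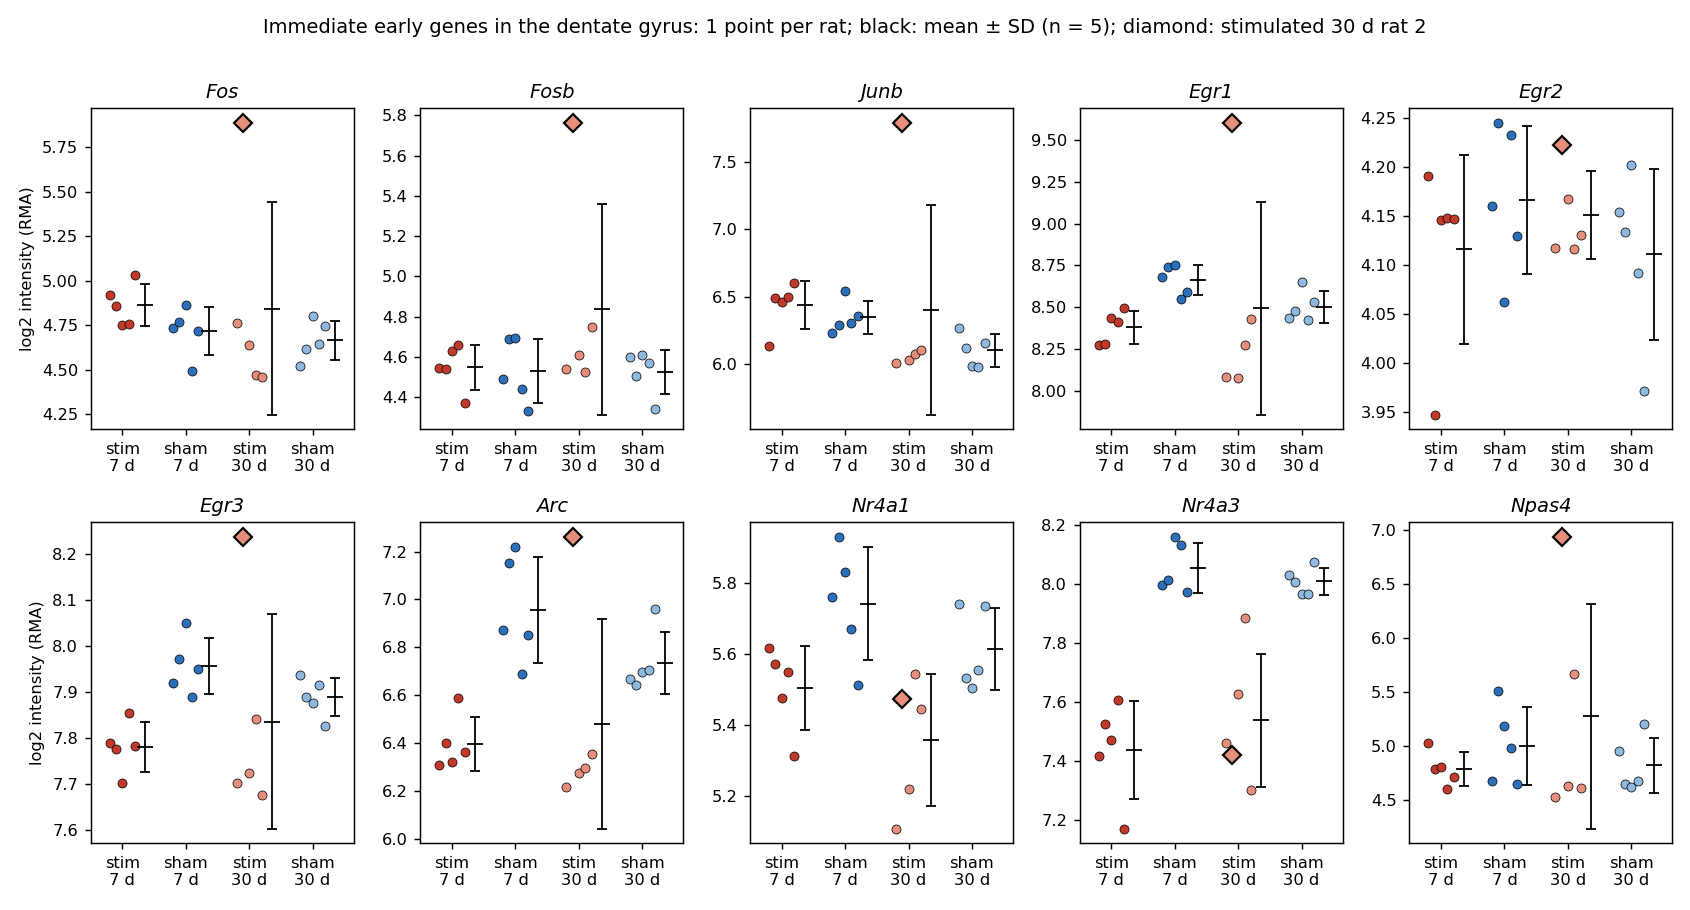
Log2 intensity (RMA, vertical axes, a separate scale for each gene) of the 10 immediate early genes in stimulated and sham rats at 7 d and 30 d, 1 point per rat, with the mean and SD of 5 rats in black. The diamond marks stimulated 30 d rat 2, which was the highest of all 20 rats for Npas4 at 6.93 and for Junb at 7.79, but lay within its group for Nr4a1 and Nr4a3.

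Npas4, a transcription factor that is induced by calcium influx in neurons and organises inhibitory synapses, had log2 intensities of 4.53, 6.93, 4.63, 5.67 and 4.61 in stimulated rats 1 to 5 at 30 d, against 4.96, 4.66, 4.62, 4.68 and 5.21 in sham rats. Rat 2 was the highest, rat 4 was the next, and the other 3 stimulated rats lay below all 5 sham rats except for rat 3, which also exceeded sham rat 3. Npas4 in rat 2 was 2.31 above the median of the other 4 stimulated rats, a 4.97-fold distance and the rank 3 of all 15800 probe sets in that rat. Junb, a partner of the FOS proteins in the AP-1 factor, was 1.74 above (rank 6). It stood at 7.79 in rat 2, and the other 4 rats had 6.01, 6.03, 6.07 and 6.10.

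Egr1, a zinc finger factor of memory consolidation, was 1.42 above the median of the other 4 rats (rank 11). Fos, the prototype of the class, was 1.33 above (rank 13) and Fosb, whose truncated form accumulates with repeated activity, was 1.19 above (rank 17). Arc, which drives the removal of AMPA receptors from synapses, was 0.97 above (rank 36) and Egr3 was 0.52 above (rank 138). The set that was high in this rat therefore ran from 1.44-fold for Egr3 to 4.97-fold for Npas4. Nr4a1, Egr2 and Nr4a3 did not stand out, with differences of 0.14, 0.10 and -0.12.

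Few other probe sets moved as far in this rat, since 32 of 15800 were more than 1 log2 unit above the median of the other 4, and 5 of these 32 were immediate early genes. The counterpart in stimulated 30 d rat 5 was 22 probe sets with 0 of the 10 genes, and in rat 4 it was 6 probe sets with 1, Npas4. The ones ranked above Junb in rat 2 besides Npas4 were Car3, the MHC class II chain RT1-Da, its partner Cd74 and the phagocyte lysosomal protein Cd68. The microglial marker mean of the same rat, 7.88, was the highest of its group, whose other rats had 7.69, 7.32, 7.03 and 7.41. Its granule cell marker mean was 7.07, against 6.86 to 7.08 over the whole group. The part of the microglial markers in the high values was not tested. Among other inducible genes, the cell cycle brake Gadd45g was 1.16 above, the MAP kinase phosphatase Dusp1 was 0.99 above, the G protein regulator Rgs2 was 0.69 above and Egr4 was 0.59 above.

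**Figure D2:**
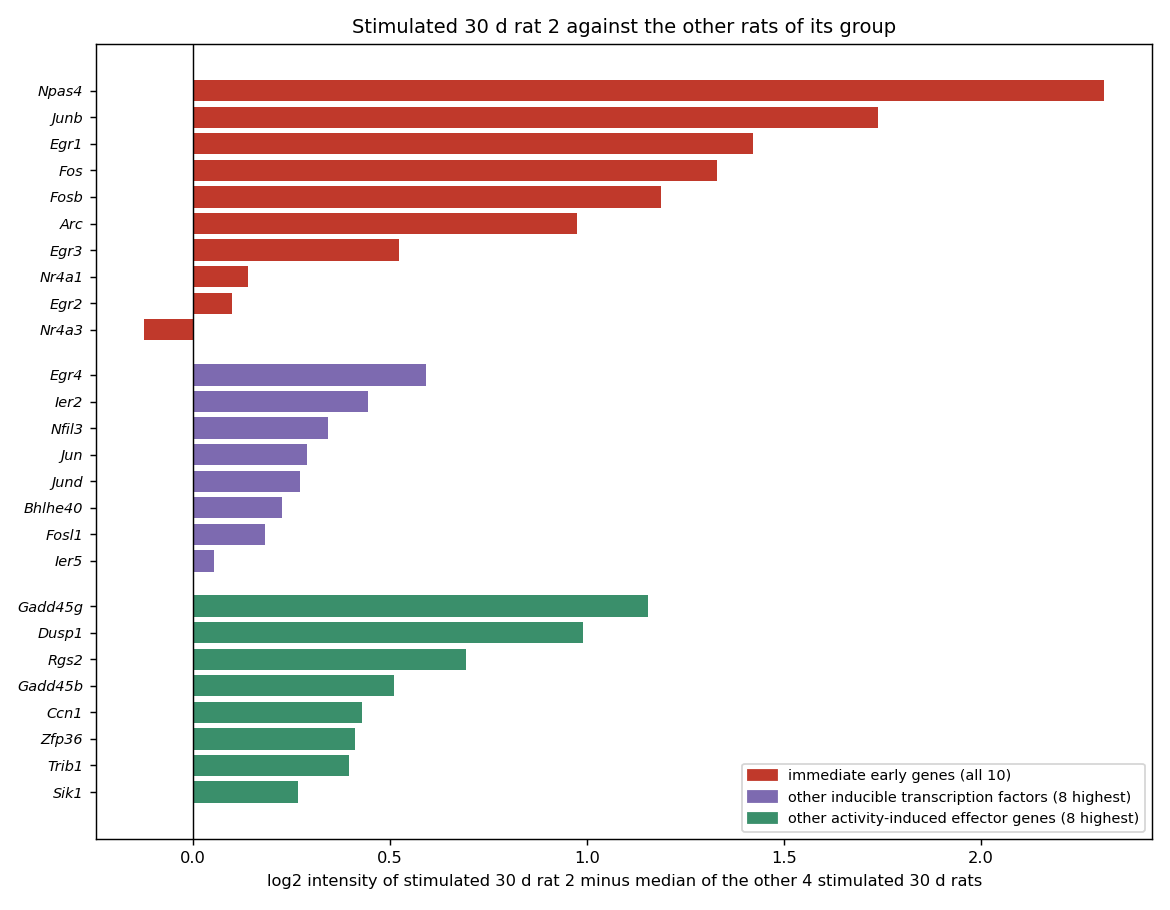
Log2 intensity of stimulated 30 d rat 2 minus the median of the other 4 stimulated 30 d rats (horizontal axis), for all 10 immediate early genes and for the 8 highest genes of each of 2 further lists. The bars reach 2.31 for Npas4 and 1.74 for Junb and stay near 0 for Nr4a1, Egr2 and Nr4a3, and Gadd45g and Dusp1 lead the effector genes.

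The NR4A genes encode orphan nuclear receptors that bind DNA without a known ligand and act as early regulators of metabolism, survival and plasticity. Nr4a3 (chromosome 5 of GRCr8, 67157141 to 67198287) had log2 intensities of 7.42, 7.53, 7.47, 7.61 and 7.17 in stimulated rats at 7 d, against 8.0, 8.01, 8.16, 8.13 and 7.97 in sham rats. All stimulated rats lay below all sham rats. At 30 d the values were 7.46, 7.42, 7.63, 7.88 and 7.30 in stimulated rats, against 8.03, 8.01, 7.97, 7.97 and 8.07 in sham rats, again with no overlap, although rat 4 came within 0.1 of the lowest sham rat. The change was -0.62 at 7 d (SE 0.0879, limma adjusted p = 0.000202), or 0.653 of the sham level, and -0.47 at 30 d (SE 0.0879, limma adjusted p = 0.00675), or 0.722 of it. The sham groups of both times had nearly the same level, with means of 8.06 ± 0.0855 and 8.01 ± 0.0453 at 7 d and 30 d (SD, n = 5 each). Without the 4 rats with high Wfs1, the changes were -0.55 at 7 d and -0.51 at 30 d, and both passed (limma adjusted p = 5.56e-05 and 0.000987). At 30 d the call was lost with the 30 d groups alone and no stimulated rat 2 (-0.44, limma adjusted p = 0.0555), and was kept without that rat in the model of 4 groups (limma adjusted p = 0.0238).

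Nr4a1, which responds to calcium and cAMP in many cell types, had 5.62, 5.57, 5.48, 5.55 and 5.31 in stimulated rats at 7 d, against 5.76, 5.93, 5.83, 5.67 and 5.51 in sham rats. The ranges overlapped through sham rat 5 only. At 30 d the values were 5.11, 5.47, 5.22, 5.54 and 5.45 in stimulated rats, against 5.74, 5.53, 5.50, 5.56 and 5.74 in sham rats. The change was -0.24 at 7 d (SE 0.0873, limma adjusted p = 0.124) and -0.26 at 30 d (SE 0.0873, limma adjusted p = 0.181), so neither passed the threshold by itself. The exact permutation test of the 2 groups of 5 gave p = 0.0397 at 7 d and p = 0.0238 at 30 d (two-sided, not adjusted). Averaged over both times, which uses all 20 rats, Nr4a1 changed by -0.25 (SE 0.0617, limma adjusted p = 0.0115). The third receptor of the family, Nr4a2, changed by -0.35 at 7 d without passing the threshold (limma adjusted p = 0.133). Stimulated rats 4 and 5 were the lowest there, at 6.98 and 6.89. At 30 d Nr4a2 was not lower, with a change of 0.0115 (limma adjusted p = 0.988).

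The RefSeq promoter window of Nr4a1, from 250 bases before to 50 after the transcription start (GRCr8, chr7:134259888-134260187, plus strand), is shown because the gene holds the most copies of the short CRE, the core of the CREB site, among the 6 genes with a window. The short CRE (TGACG, or CGTCA on the other strand) and the EGR site (GCGNGGGCG on either strand) are in capitals.

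Nr4a1: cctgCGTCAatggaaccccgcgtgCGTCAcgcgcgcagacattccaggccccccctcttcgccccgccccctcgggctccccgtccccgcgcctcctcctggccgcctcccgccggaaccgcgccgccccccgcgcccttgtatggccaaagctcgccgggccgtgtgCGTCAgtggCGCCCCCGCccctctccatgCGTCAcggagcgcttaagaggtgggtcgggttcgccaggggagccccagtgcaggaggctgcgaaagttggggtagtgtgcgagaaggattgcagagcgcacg

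The short CREs began at -246, -226, -82 and -53 and the EGR site at -73, counted from the start to the first base in the window. A short CRE is common, since 21.2% of the 33469 rat windows of this length hold one on either strand, and 4.98% hold the EGR site. These matches describe letters and not bound sites. The windows of Fos, Egr3, Arc and Nr4a3 were not in the table used. Those of Fosb, Egr2, Nr4a1 and Npas4 lie inside the annotated span of their gene. Each window covers a single start, and other starts were not searched.

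Arc (chromosome 7 of GRCr8, 108444959 to 108448413), whose mRNA is carried to active dendrites, had log2 intensities of 6.31, 6.40, 6.32, 6.59 and 6.36 in stimulated rats at 7 d, against 6.87, 7.15, 7.22, 6.69 and 6.85 in sham rats. All stimulated rats were below all sham rats, and stimulated rat 4 lay closest to them. The change was -0.56 (SE 0.147, limma adjusted p = 0.0225), or 0.678 of the sham level. At 30 d Arc stood at 6.22, 7.26, 6.28, 6.30 and 6.35 in stimulated rats, against 6.67, 6.64, 6.70, 6.70 and 6.96 in sham rats. There 4 stimulated rats lay below every sham rat and rat 2 lay above every one. The change over all rats was -0.25 (SE 0.147, limma adjusted p = 0.556), and without rat 2 it was -0.45 (SE 0.0924, limma adjusted p = 0.0223). Rat 2 was left out for high values that include Arc itself, so the second fit is a description and not a test. The call at 7 d was lost when sham rat 2, sham rat 3, stimulated rat 3 or stimulated rat 5 of that time was left out, with changes from -0.63 to -0.49 over all such fits. Without the 4 rats with high Wfs1 the 7 d change was -0.55 and did not pass either (limma adjusted p = 0.0708). Nor did it pass without the pair of arrays with the lowest correlation, stimulated 7 d rat 5 and sham 30 d rat 3 (limma adjusted p = 0.0574). The SE was 0.165 and 0.163 in these fits, against 0.147 over all rats. Both fits had fewer rats and kept stimulated 30 d rat 2, and what cost the call was not tested.

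The EGR genes encode zinc finger factors that bind the same GC-rich site, of which Egr1 and Egr3 act in synaptic plasticity and Egr2 is best known from myelination and the hindbrain. Egr1 (chromosome 18 of GRCr8, 26737078 to 26740877) had 8.27, 8.28, 8.43, 8.41 and 8.50 in stimulated rats at 7 d, against 8.68, 8.74, 8.75, 8.55 and 8.59 in sham rats. No stimulated rat reached the sham range. At 30 d it had 8.08, 9.60, 8.08, 8.27 and 8.43 in stimulated rats, against 8.43, 8.47, 8.65, 8.42 and 8.53 in sham rats. Of the stimulated rats other than rat 2, 3 were below all sham rats and rat 5 was level with the 2 lowest.

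The change in Egr1 was -0.28 at 7 d (SE 0.184, limma adjusted p = 0.451), where the shared spread of the model includes rat 2 of the 30 d group. Without that rat the same change had an SE of 0.0705 and passed the threshold (limma adjusted p = 0.0161). With the 2 groups of 7 d alone in the model it also passed (limma adjusted p = 0.0236). The exact permutation test of the 7 d groups gave p = 0.00794, the smallest that 5 against 5 allows (two-sided, not adjusted). At 30 d the change was -0.0086 over all rats and -0.29 without rat 2, which did not pass (limma adjusted p = 0.0866).

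Egr3 had 7.79, 7.78, 7.70, 7.85 and 7.78 in stimulated rats at 7 d, against 7.92, 7.97, 8.05, 7.89 and 7.95 in sham rats. The groups did not overlap, but the distance was small, with a change of -0.18 (SE 0.0764, limma adjusted p = 0.210). Without stimulated 30 d rat 2 the SE was 0.0464 and the change passed (limma adjusted p = 0.0240), whereas with the 7 d groups alone it did not (limma adjusted p = 0.0766). At 30 d Egr3 changed by -0.05, and by -0.15 without rat 2 (limma adjusted p = 0.189). Egr2 lay near the background. It stood between 3.95 and 4.24 over all 20 rats, 0.45 above background on average, with changes of -0.05 at 7 d and 0.04 at 30 d.

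Egr1 and Egr2 are set side by side because the first was high in stimulated 30 d rat 2 and the second was not, while their promoter windows share an arrangement of sites. Egr2 lay 0.45 above background on average, so whether it rose in that rat cannot be judged well. No link between the sites and the levels was tested. The windows (GRCr8, chr18:26736828-26737127 on the plus strand for Egr1 and chr20:21054392-21054691 on the minus strand for Egr2) carry the CArG box, the binding site of SRF, and the short CRE in capitals.

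Egr1: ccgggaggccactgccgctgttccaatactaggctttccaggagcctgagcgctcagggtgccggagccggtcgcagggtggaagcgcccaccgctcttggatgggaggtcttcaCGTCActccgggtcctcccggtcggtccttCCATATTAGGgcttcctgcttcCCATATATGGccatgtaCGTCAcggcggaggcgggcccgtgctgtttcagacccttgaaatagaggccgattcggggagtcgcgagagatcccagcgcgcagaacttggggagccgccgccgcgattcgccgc
Egr2: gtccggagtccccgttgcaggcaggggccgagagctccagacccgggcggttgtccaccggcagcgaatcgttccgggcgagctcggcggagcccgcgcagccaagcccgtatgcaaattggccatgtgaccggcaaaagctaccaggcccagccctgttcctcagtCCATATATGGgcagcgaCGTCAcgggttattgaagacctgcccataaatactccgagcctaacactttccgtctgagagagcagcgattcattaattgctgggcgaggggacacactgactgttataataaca

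Both held a CArG box of the same letters, CCATATATGG, at -83 and a short CRE at -66. Egr1 had a further CArG box at -105 and a further short CRE at -135. The CArG box is rare, since 1.64% of all windows hold one. No such box was matched in the windows of Fosb, Junb, Nr4a1 and Npas4, and no full CRE (TGACGTCA, held by 1.83% of all windows) in any of the 6. Each window covers a single start, so a missing site holds for that window and not for the gene.

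Fos and Fosb encode subunits of the AP-1 factor that pair with JUN proteins such as JUNB. Fos had 4.92, 4.86, 4.75, 4.76 and 5.03 in stimulated rats at 7 d, against 4.74, 4.77, 4.86, 4.50 and 4.72 in sham rats. The groups overlapped, and the change of 0.15 had a 95% confidence interval from -0.22 to 0.52. At 30 d Fos stood at 4.76, 5.89, 4.64, 4.47 and 4.46 in stimulated rats, against 4.52, 4.62, 4.80, 4.64 and 4.74 in sham rats. The change was 0.18 with rat 2 and -0.08 without it, so its sign rested on that animal.

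Fosb had 4.54, 5.76, 4.61, 4.53 and 4.75 in stimulated rats at 30 d, against 4.60, 4.50, 4.61, 4.57 and 4.34 in sham rats, a change of 0.31 with rat 2 and 0.08 without it. At 7 d it changed by 0.02, with an interval from -0.31 to 0.35. Junb had 6.14, 6.49, 6.46, 6.50 and 6.60 in stimulated rats at 7 d, against 6.23, 6.29, 6.55, 6.30 and 6.36 in sham rats, with a change of 0.09. At 30 d it changed by 0.30 with rat 2 and by -0.05 without it. None of these AP-1 changes passed the threshold, and limma adjusted p lay between 0.482 for Fosb at 30 d and 0.971 for Fosb at 7 d. Npas4 changed by -0.21 at 7 d and by 0.45 at 30 d, and its interval at 30 d ran from -0.20 to 1.11. Without rat 2 the 30 d change was 0.0369, with an interval from -0.38 to 0.46. Fos, Fosb and Npas4 lay 1.09, 0.92 and 1.29 above background on average, against 4.82 for Egr1 and 4.08 for Nr4a3. A fall in Fos, Fosb or Npas4 would therefore be harder to see than in those genes.

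The window of Junb, the gene with the second largest distance in stimulated 30 d rat 2 among the 10, is shown with its short CRE and its TATA box (TATAAA) in capitals (GRCr8, chr19:40080876-40081175, plus strand).

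Junb: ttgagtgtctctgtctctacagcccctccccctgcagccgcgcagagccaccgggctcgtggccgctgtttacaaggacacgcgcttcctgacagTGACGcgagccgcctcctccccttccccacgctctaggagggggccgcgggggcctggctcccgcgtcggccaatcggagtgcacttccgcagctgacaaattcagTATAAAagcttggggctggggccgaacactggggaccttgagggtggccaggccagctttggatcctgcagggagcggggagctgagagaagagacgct

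The short CRE began at -155 and the TATA box at -49. A TATA box in either direction was found in 14.2% of all windows and also at -180 in that of Fosb, whereas the window of Npas4 held none of the 7 motifs searched. The AP-1 site (TGANTCA, 7.33% of all windows) and the NR4A site (AAAGGTCA, 1.43%) were matched in none of the 6 windows.

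**Figure D3:**
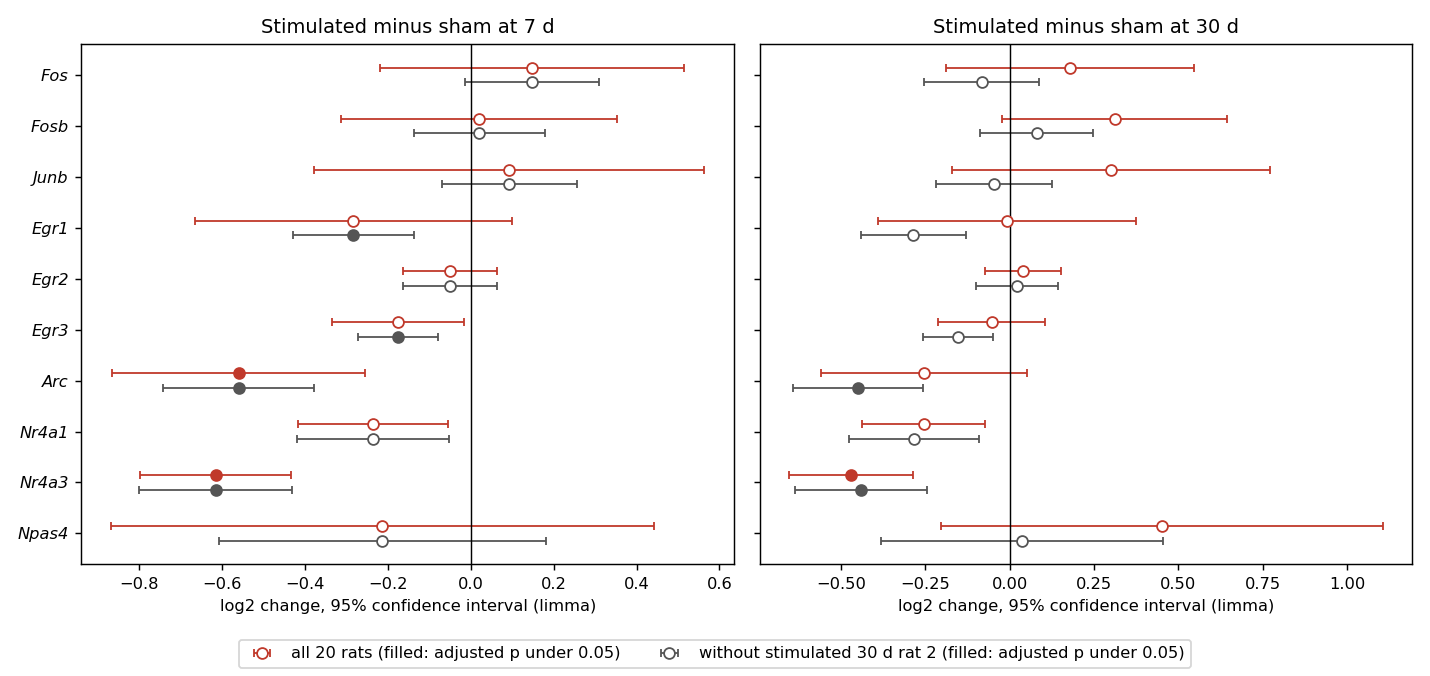
Log2 change with its 95% confidence interval (limma, horizontal axes) of each immediate early gene in stimulated minus sham rats at 7 d and at 30 d, from all 20 rats in red and without stimulated 30 d rat 2 in grey, with filled points where the adjusted p was under 0.05. Arc and Nr4a3 are filled at 7 d and Nr4a3 at 30 d with all rats, and without rat 2 Egr1 and Egr3 are also filled at 7 d and Arc at 30 d. Rat 2 was left out because of its values of several of these genes.

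Over the 10 genes, 2 were called at 7 d, both lower, where 6.48% of all probe sets were called and 2.46% were lower. All 5 stimulated rats lay below all 5 sham rats for 4 of the 10, against 2.44% of all probe sets, and above them for 0 of the 10, against 3.81%. The median change of the 10 genes was -0.19, and that of all probe sets was 0.0018. At 30 d 1 was called, lower, where 1.73% of all were called and 0.899% were lower. The groups did not overlap for that 1 gene, with 2.42% of all probe sets below and 1.84% above, and the median change was 0.016 against -0.0064 for all. Averaged over both times 3 were called, Nr4a3 (-0.54), Arc (-0.41) and Nr4a1 (-0.25), all lower, where 10.1% of all were called and 4.46% were lower. Without the 4 rats with high Wfs1 the change in Arc was -0.36 and did not pass (limma adjusted p = 0.0941). That fit left out stimulated 30 d rats 4 and 5 and kept stimulated 30 d rat 2. Its 30 d change in Arc was -0.17 (SE 0.188). Without stimulated 30 d rat 2, 4 were called at 7 d (Egr1, Egr3, Arc and Nr4a3), all lower, where 6.9% of all probe sets were called and 2.57% were lower. At 30 d 2 were called without it (Arc and Nr4a3), both lower, against 0.835% of all called and 0.437% lower. The median change of the 10 genes at 30 d was then -0.12 in place of 0.016, against -0.00729 for all probe sets. For the mean of both times 5 were called without it (Egr1, Egr3, Arc, Nr4a1 and Nr4a3), all lower, against 8.52% called and 3.66% lower. The rat was chosen for its high values of several of these genes, so the counts without it are a description.

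Whether the change differed between the times was tested in the same model. The difference of the changes (30 d minus 7 d) was called for 0 of the 10 genes and for 0% of all probe sets, with 0 of the 10 at an unadjusted p under 0.05 and 682 of all. It was 0.31 for Arc (SE 0.208) and 0.15 for Nr4a3 (SE 0.124), and an effect of time on the lower levels was not detectable with 5 rats a group. Without stimulated 30 d rat 2 the difference was 0.11 for Arc (SE 0.127) and 0.17 for Nr4a3 (SE 0.128). In stimulated rats alone, 30 d against 7 d, 0 of the 10 genes were called where 13.5% of all probe sets were, and 2 were called without rat 2, Junb (-0.39, limma adjusted p = 0.00958) and Fos (-0.28, limma adjusted p = 0.0292), where 14.6% of all probe sets were called in that fit, a share near that of the 10 genes. In sham rats alone, 30 d against 7 d, 0 of the 10 genes and 0% of all probe sets were called, with 0 of the 10 and 2107 of all at an unadjusted p under 0.05. All 10 sham differences were negative, with a median of -0.10 against -0.0023 for all probe sets. The 2 that passed an exact permutation test unadjusted were Junb (-0.24, p = 0.0159) and Egr1 (-0.16, p = 0.0317). Their unadjusted limma p were 0.292 and 0.393. The exact test was not run over all probe sets, of which 13.34% had an unadjusted limma p under 0.05, so nothing is read from the 2.

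The genes were then compared between rats of the same group, which the choice of genes did not use. Within-group SDs of Npas4, Junb, Egr1, Fos, Fosb and Arc were above those of 97.4% or more of all probe sets, and that of Egr2 was above 15.1%. These SDs pool the groups, and each of the high ones was largest in stimulated rats at 30 d, the group of rat 2. There the SD of Junb was 0.777 and that of Egr1 was 0.636, against at most 0.177 and 0.0987 in any other group. For the 21 pairs among the 7 genes that were high in stimulated 30 d rat 2, a set chosen after the values were seen, Pearson's r of the deviations from group means had a median of 0.85 (0.73 to 0.93). These values rested on 1 animal. Without it the same pairs had a median r of 0.26 (-0.15 to 0.48), and without the 2 rats farthest from the median of the first gene of a pair the median was 0.53. In a permutation test of rats within groups (100000 permutations, two-sided), 0 of all 45 pairs passed after Benjamini-Hochberg adjustment for Pearson's r, and 1 of 45 for Spearman's rho.

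That 1 pair was Nr4a1 with Npas4, with r = 0.60 (permutation p = 0.0204, adjusted 0.108) and rho = 0.78 (adjusted permutation p = 0.0423). It did not rest on rat 2, since r without it was 0.75 (adjusted permutation p = 0.0432), the only pair of the 45 to pass in the remaining 19 rats. Without the 2 rats farthest from the median of Nr4a1 it was 0.52. Junb with Egr1 had the highest r of all, 0.93, and 0.31 without rat 2. Fos with Fosb had 0.81, and -0.15 without rat 2.

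**Figure D4:**
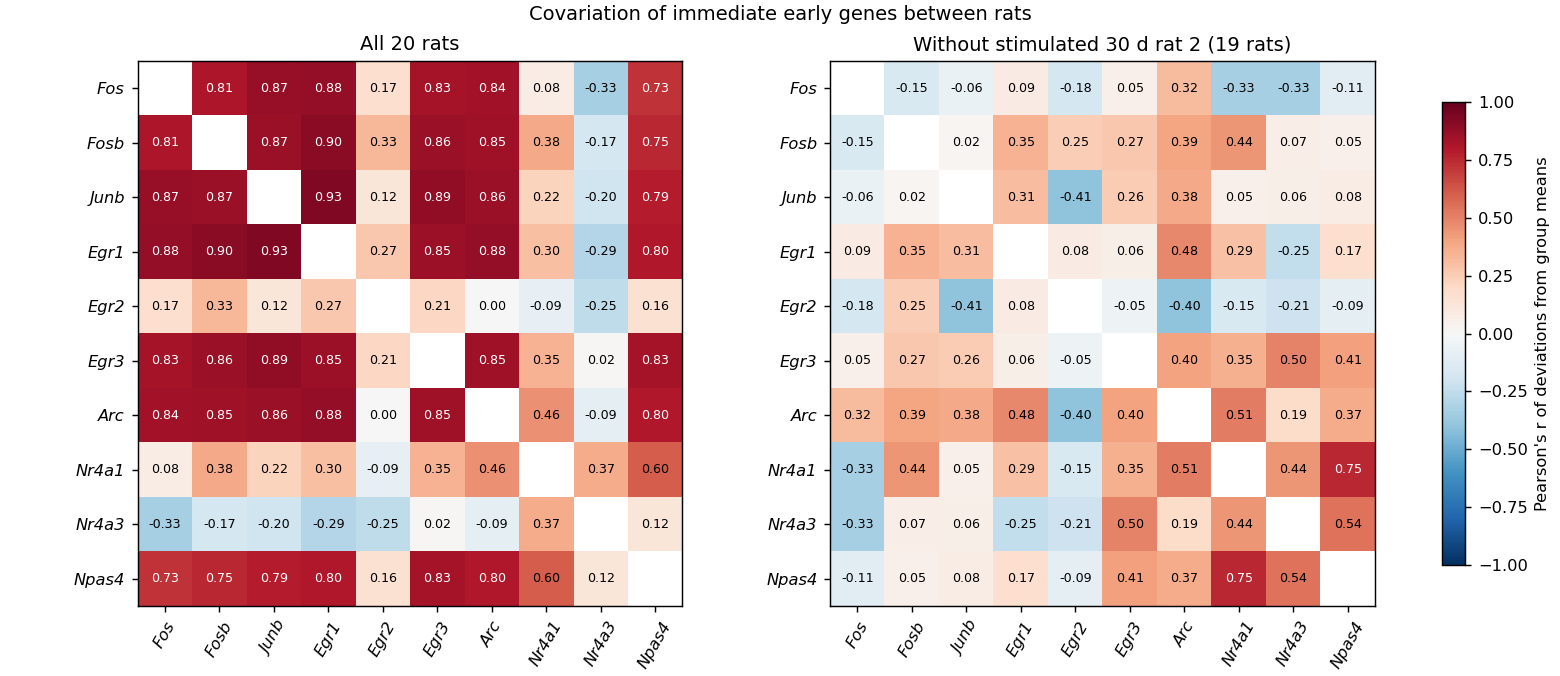
Pearson's r between the deviations of 2 genes from their group means, for each pair of the 10 immediate early genes (both axes), over 20 rats on the left and over 19 rats without stimulated 30 d rat 2 on the right, with red for positive and blue for negative r. The block of values between 0.73 and 0.93 on the left falls to between -0.15 and 0.48 on the right, and Nr4a1 with Npas4 is at 0.60 on the left and 0.75 on the right.

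The genes outside the 10 whose deviations were most like the mean of their standardised deviations over 20 rats were Or6d15 (r = 0.82), Dusp1 (0.81), Sectm1a (0.78), Qprt (0.77), Ccn1 (0.76) and Cited2 (0.76). Without stimulated 30 d rat 2 these were 0.34, 0.18, 0.74, 0.29, 0.51 and 0.23, so of the 6 it was Sectm1a that stayed near its value. The mean itself shares each rat's array with these genes, and the values are a description.

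Other genes of the same response were set beside the 10. Of 25 further inducible transcription factors 22 were measured, and 0 were called at either time, with 2 at an unadjusted p under 0.05 at 7 d and 0 at 30 d. Of all probe sets 6.48% were called at 7 d and 1.73% at 30 d. The shares of all with an unadjusted p under 0.05 (limma) were 18.44% and 11.37%. With so short a list, nothing is read from these counts. The smallest p at 7 d were those of Nr4a2 (-0.35) and of Bhlhe40 (0.22), a clock-related repressor. The median change of the list was 0.021 at 7 d and -0.014 at 30 d, against 0.0022 and -0.0066 over all genes.

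Effector genes carry the response from the nucleus to the synapse and to other cells. Of 35 listed 29 were measured, 7 were higher and 0 lower at 7 d, and 2 were higher and 1 lower at 30 d, with median changes of 0.18 and 0.05. Of all probe sets 4.02% were higher and 2.46% lower at 7 d, and 0.835% were higher and 0.899% lower at 30 d. The list was chosen with earlier results of these data known, so its counts are a description and not a test of the list. Nptx2, a secreted pentraxin that clusters AMPA receptors, had 8.01, 8.28, 8.12, 8.16 and 8.28 in stimulated rats at 7 d, against 7.43, 7.75, 7.52, 7.31 and 7.30 in sham rats, a change of 0.71 (limma adjusted p = 0.000103). It was also higher at 30 d, by 0.49 (limma adjusted p = 0.00810). Ptgs2, the inducible cyclooxygenase, was higher by 0.61 at 7 d and by 0.67 at 30 d, and the growth factor gene Bdnf was higher by 0.32 at 7 d and had 0.21 at 30 d, which did not pass (limma adjusted p = 0.172). The opioid precursor Penk (0.49), the activin subunit Inhba (0.48), the matrix protein Ccn2 (0.38) and the kinase Sik1 (0.28) completed the 7. The gene lower at 30 d was Sorcs3, a sorting receptor of the synapse, with 6.97, 6.93, 6.93, 7.04 and 6.94 in stimulated rats, against 7.30, 7.29, 7.53, 7.55 and 7.44 in sham rats, a change of -0.46 (limma adjusted p = 0.00810).

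In stimulated 30 d rat 2, in which Npas4, Junb, Egr1, Fos and Fosb were high, Nptx2 was 7.80 and Ptgs2 was 8.66, within the ranges of the other 4 rats of its group (7.64 to 8.15 and 8.32 to 9.25). Other effector genes were high in the same rat, led by Gadd45g and Dusp1 as given above.

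Of 35 symbols listed for upstream kinases, factors and corepressors 27 were measured, under current symbols. The 35 include older symbols of listed genes, Mkl1 for Mrtfa and Mkl2 for Mrtfb. Among those measured, 1 was higher and 2 were lower at 7 d, and 0 were higher and 1 was lower at 30 d. Of all probe sets 6.48% were called at 7 d and 1.73% at 30 d, and with so few members called nothing is read about the list. Camkk2, the kinase that switches on the CaM kinases, had 8.03, 8.06, 8.03, 8.20 and 7.74 in stimulated rats at 7 d, against 8.50, 8.31, 8.63, 8.29 and 8.49 in sham rats, a change of -0.43 (limma adjusted p = 0.00601). Camk4, its nuclear target, which phosphorylates CREB, changed by -0.31 at 7 d (limma adjusted p = 0.0231) and, at 30 d, by -0.33 (limma adjusted p = 0.0357). Mrtfa, a coactivator of SRF, was higher at 7 d by 0.24 (limma adjusted p = 0.0245). The median of the list was -0.05 at 7 d and -0.04 at 30 d.

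**Figure D5:**
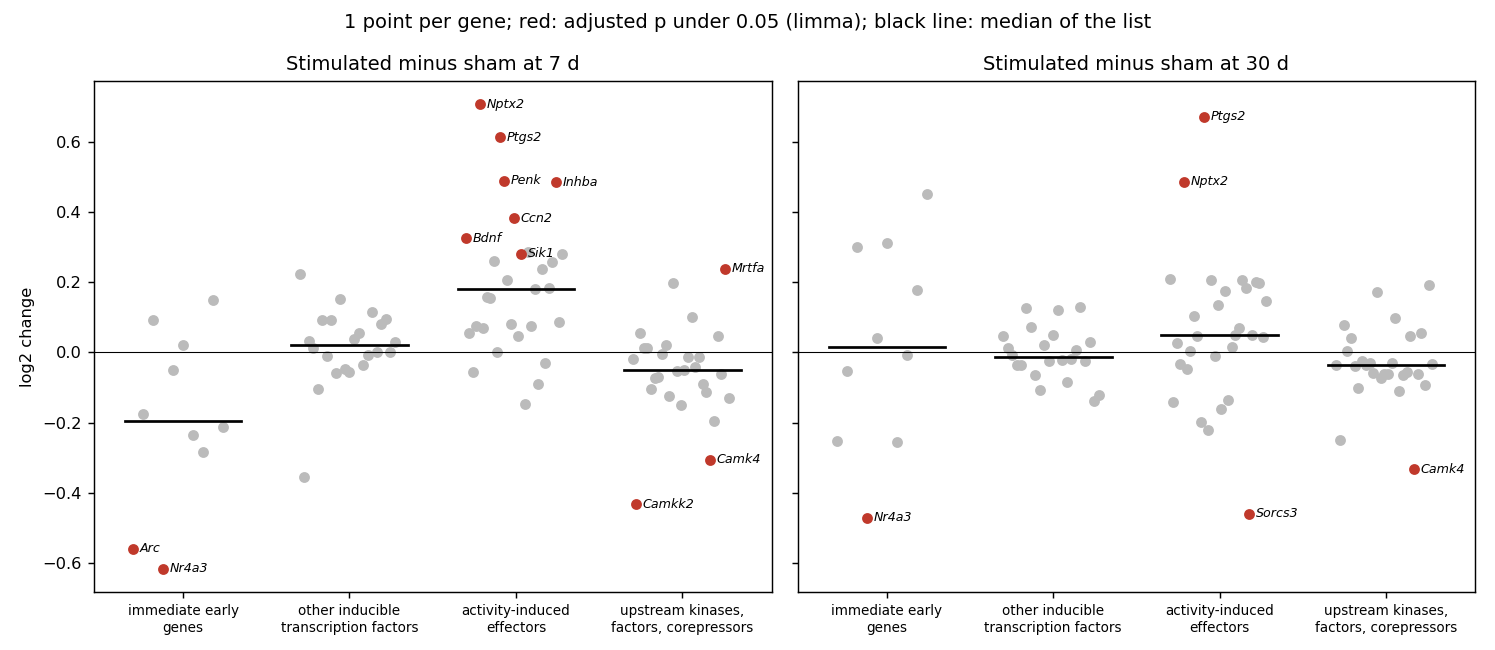
Log2 change in stimulated minus sham rats (vertical axis) of the 10 immediate early genes, 22 other inducible transcription factors, 29 activity-induced effector genes and 27 upstream kinases, factors and corepressors at 7 d (left) and 30 d (right), 1 point per gene, red where the limma adjusted p was under 0.05, with the median of each list as a black line. The immediate early genes in red are below 0 at both times, and 7 effector genes in red are above 0 at 7 d, led by Nptx2 at 0.71. The lists were chosen with earlier results of these data known.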

How the data were processed

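Affymetrix arrays measured the RNA of 20 left dentate gyri, 1 array per rat. The authors normalized the arrays with RMA (oligo 1.22.0, per the methods and labels), and the deposited values are log2 intensities per probe set, with no floor or filter. Following the methods, the 18644 probe sets with 1 gene symbol were kept, values below the background (the 20th percentile of all values, log2 3.69, in place of the antigenomic probes) were set to that level, and a probe set that failed to exceed it on over 5 arrays was dropped, which left 15800. Differences were fitted in R 4.3.3 with limma 3.58.1 (lmFit, eBayes) as 1 model of 4 groups, with Benjamini-Hochberg adjustment over these probe sets and a threshold of 0.05. The script was tested on simulated data. Single genes were also compared with exact permutation tests, and pairs of genes with 100000 permutations of rats within groups. The precision is limited by 5 arrays a group.

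All 10 genes are named, each at its single-gene probe set with the highest mean, with up to 4 genes of smallest p per list and time and the 6 genes most alike. Further genes were named with their values in view. The genes and lists were chosen with earlier results of these data known. Positions, promoters and updated symbols are those of RefSeq (GRCr8), and motifs were matched on both strands. The Fosb gene identifier of the platform was matched by symbol. Alternatives were other filters, backgrounds, normalizations, variance models, array weights, the compared groups alone, unmoderated t-tests, averaged probe sets, a block for the replicate number and leaving out each rat. The miRNA arrays were not analysed here.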

Additional observations from a re-analysis of the deposited data

Results flagged for a closer look

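Within groups of 5 rats, 14 of 112 gene and group combinations had 1 rat far from the nearest other rat relative to the range of the group (Dixon's criterion at 95%), of which chance gives about 5%. The 10 immediate early genes gave 7 of 40, and 5 of these 7 were high values of stimulated 30 d rat 2. They were Fos at 5.89, Fosb at 5.76, Junb at 7.79, Egr1 at 9.60 and Arc at 7.26, where the nearest rats of the group had 4.76, 4.75, 6.10, 8.43 and 6.35. Over all 15800 probe sets, 0.96% had this rat apart on the high side, against 0.35%, 0.35%, 0.37% and 0.85% for rats 1, 3, 4 and 5 of the group.

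The other 2 were Egr2 in stimulated 7 d rat 2, low at 3.95, and Arc in sham 30 d rat 5, high at 6.96. Among the related lists, Myc (4.58), Ptgs2 (9.17) and Mef2c (9.10) were high in stimulated 7 d rat 5, 1 of the 4 rats with Wfs1 above 8. Bdnf was high in stimulated 7 d rat 2 at 6.65, Nfil3 in stimulated 30 d rat 2 at 5.91 and Ccn2 in sham 7 d rat 3 at 5.32, and Klf6 was low in sham 30 d rat 3 at 5.09. No cause was tested for any of these values.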

How the results depend on the processing

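Of 474 values of single immediate early genes under alternatives other than leaving out 1 rat, 446 kept their direction and their side of the threshold, and so did 609 of 640 with 1 rat left out. The count at 7 d was 2 and became 1 with unmoderated t-tests, without stimulated 7 d rat 5 and sham 30 d rat 3 (the arrays with the lowest correlation), and without the 4 rats with high Wfs1, where Arc lost its call in each case. It ranged from 1 to 4 with 1 rat left out. The count at 30 d was 1 and became 2 with array weights, which added Nr4a1, and ranged from 1 to 2, and Nr4a3 lost its call there with the 30 d groups alone and no stimulated 30 d rat 2 (limma adjusted p = 0.0555). The count for the mean of both times ranged from 3 to 5. For stimulated 30 d against 7 d it was 0 and became 2 with these groups alone and no stimulated 30 d rat 2, and ranged from 0 to 2. Pairs of genes that passed were 0, 12 with group means not removed, and from 0 to 3 with 1 rat left out. The settings that leave out chosen rats together were added after seeing the data. Stimulated 30 d rat 2 was likewise singled out for its values of these genes.

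Signs turned for Fosb at 7 d (-0.0034 with quantile normalization, -0.014 with medians centred, from -0.0290 to 0.0644 with 1 rat left out) and for Egr1 at 30 d (0.0289 without the 2 arrays, 0.0792 without the high Wfs1 rats, from -0.29 to 0.0950). Fos at 30 d was -0.0828 and Junb -0.0471 with the 30 d groups alone and no rat 2, with ranges from -0.0828 to 0.27 and from -0.0471 to 0.40. For stimulated 30 d against 7 d, Fos was 0.0213 with quantile normalization, 0.0139 with medians centred, 0.0232 without the 2 arrays and 0.28 without the high Wfs1 rats, with a range from -0.28 to 0.0770. Junb was 0.0025 and 0.21 without these same arrays, with a range from -0.39 to 0.0596. The cause was not tested.

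With the replicate number as a block, 2 genes were called at 7 d, 1 at 30 d, 3 for the mean of both times and 0 in each of the other 3 comparisons, the same as without it. Rats of the same number were not treated as pairs, since the correlation of deviations between rats of the same number lay between -0.49 and 0.15 and exceeded 0.1 in 2 of 10 pairs. Egr2 lies near the background, so small changes in it are the least well measured here.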
